A study of Mus musculus with 28 samples.

Results

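The genes described here encode 10 secreted or shed products of regulatory T (Treg) cells and other helper T cells: Il10, Ebi3, Il12a, Fgl2, Areg, Penk, Ifng, Il4, Lta and Ltb. They were picked by symbol for what their products do, with earlier results of these data known. All 10 were found among the 23420 gene symbols of the count files. RNA-seq was done on sorted CD4 T cells of male mice aged 6 to 8 weeks, in 28 libraries. In KO mice the Foxp3-gfp allele lacked CNS3, an intronic enhancer of Foxp3, and in WT mice the same reporter allele had the enhancer in place, so no group was without the reporter. In each genotype the sorted populations were splenic Treg cells titled aTreg, splenic Treg cells titled rTreg, thymic Treg cells, and thymic CD4 single-positive cells labelled as non-Treg (CD4SP below, mCD4SP in the titles). Each population had 4 KO and 3 WT libraries. The labels do not say what r and a stand for. The design text speaks of 2 littermates and does not tie libraries to animals, so p-values measure the spread between libraries, which may be partly technical.

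Treg cells restrain other immune cells by contact, by taking up growth factors and by secreting cytokines. Interleukin-10 acts on myeloid cells and T cells to limit inflammation, while Ebi3 protein pairs with the Il12a product to form interleukin-35 and with another chain to form interleukin-27. Treg cells in tissues also make repair factors such as amphiregulin, and activated Treg cells can make small amounts of the effector cytokines of other helper T cell lineages.

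Gene counts summed to 2.20e+07 to 4.08e+07 per library, and levels are CPM, counts scaled to the same library total, on library sizes scaled by the TMM method. Foxp3, the targeted gene, had 519 ± 24.0 CPM in KO aTreg, 612 ± 36.5 in WT aTreg, 547 ± 39.6 in KO rTreg, 618 ± 42.2 in WT rTreg, 544 ± 73.7 in KO thymic Treg and 652 ± 16.3 in WT thymic Treg libraries (SD, n = 4 KO and 3 WT). CD4SP libraries had 1.44 ± 0.363 CPM of Foxp3 in KO and 3.36 ± 0.131 CPM in WT. Foxp3 exon counts do not show whether the enhancer itself is deleted. The T cell genes Cd3e and Cd4 were present throughout, with lowest group means of 1515 CPM for Cd3e (WT rTreg) and 739.8 CPM for Cd4 (KO aTreg). Klrg1, a receptor of effector cells, averaged 198 CPM in KO aTreg and 239 in WT aTreg, and 13.4 in KO rTreg and 12.3 in WT rTreg libraries. One library stood apart: KO CD4SP library 2 held 282 CPM of summed myeloid markers, against 89.8 to 106 in the other KO CD4SP libraries, and some results that include it are also given without it.

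A gene was called too low to measure in a group when the median raw count over the group's libraries was under 10. By that rule Penk, Lta and Ltb were measurable in all 8 groups, and Fgl2 in 7. Il10, Ebi3, Areg and Ifng were measurable in the 6 Treg groups and in neither CD4SP group. Il4 was measurable in only 2 groups, KO aTreg and WT CD4SP. Il12a was measurable in none, with 114 counts over all 28 libraries and at most 17 in any one. The filter on low counts kept 9 of the 10 genes for testing, without Il12a. In bulk samples such as these, fewer cells that make a transcript and less RNA per cell cannot be told apart.

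**Figure D1:**
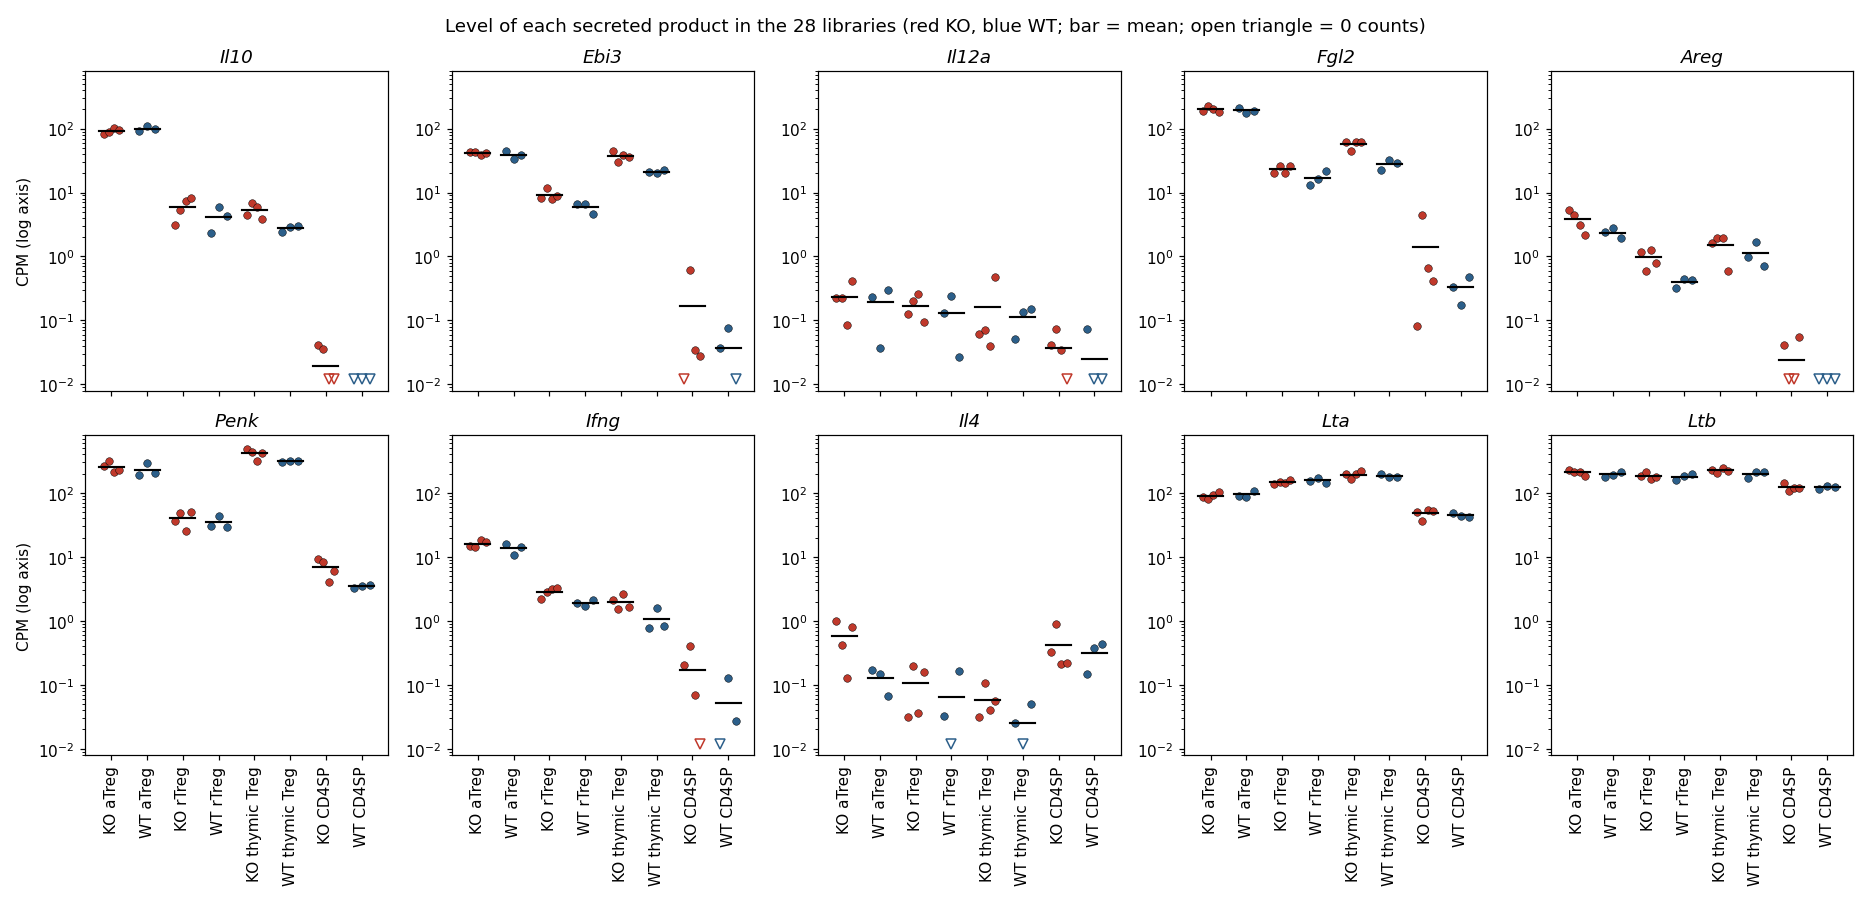
Level of each gene in CPM (log axis) in every library, with KO groups in red and WT groups in blue, the mean as a bar and libraries at 0 counts as open triangles. Il10, Ebi3, Fgl2, Areg, Penk and Ifng had higher means in aTreg than in rTreg and CD4SP groups, with Penk still at 3.30 CPM or more in every CD4SP library, while Lta and Ltb were above 36 CPM in every library.

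Per kilobase of exon the products ranked differently in each population. In aTreg cells Penk had 156 CPM per kb in KO and 141 in WT, Ltb had 138 in KO and 129 in WT, and Il10 had 71.2 in KO and 76.3 in WT. Lta followed at 65.2 CPM per kb in KO aTreg and 68.5 in WT aTreg, Fgl2 at 53.2 in KO and 51.2 in WT, and Ebi3 at 35.6 in KO and 33.9 in WT. The interleukin-10 transcript was thus among the 5 most abundant of these genes per length in aTreg cells. In thymic Treg cells it was far down the list, at 4.03 CPM per kb in KO and 2.12 in WT, while Penk stood at 253 in KO and 192 in WT.

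Il10 (chr1:131019845-131024974, plus strand, GRCm38) was highest in aTreg cells. There Il10 read 83.2, 90.1, 104 and 95.9 CPM in KO and 91.5, 109.5 and 98.7 CPM in WT libraries. In rTreg cells it read 3.11, 5.38, 7.35 and 8.24 CPM in KO and 2.30, 6.02 and 4.25 CPM in WT libraries. Every aTreg library was more than 10 times above every rTreg library of either genotype. Thymic Treg libraries had 4.50, 6.83, 5.94 and 3.83 CPM in KO and 2.44, 2.93 and 2.97 CPM in WT. CD4SP libraries held 1, 1, 0 and 0 Il10 counts in KO and none in WT, where 3 counts would equal 0.0757 to 0.111 CPM per library. Among the Treg populations the rTreg and thymic Treg groups overlapped, and only aTreg stood clear of the rest.

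Relative to rTreg, Il10 in aTreg cells rose by 3.95 on the log2 scale in KO (SE 0.229, adjusted p = 3.56e-13) and by 4.58 in WT (SE 0.274, adjusted p = 9.01e-13), by edgeR's quasi-likelihood test with Benjamini-Hochberg adjustment over 13338 genes, as for every adjusted p below. Between rTreg and thymic Treg cells Il10 did not pass the test in either genotype, with adjusted p = 0.518 in KO and 0.127 in WT. WT thymic Treg cells had at least 95.8-fold more Il10 than WT CD4SP cells, with 3 counts over the CD4SP group as the floor. In KO the ratio of thymic Treg to CD4SP was 302 (95% interval 83.1 to 2495, counting error only), against 2 counts in CD4SP. Without CD4SP library 2 the KO ratio was 460.5 (82.3 to 18217.7), against 1 count.

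Ebi3 (chr17:55952640-55957022, plus strand), the beta subunit of interleukin-35, had a different pattern, with thymic Treg cells close to aTreg cells. In aTreg cells it read 42.9, 42.3, 38.3 and 40.9 CPM in KO and 45.1, 34.1 and 38.2 CPM in WT libraries. In rTreg cells it read 8.13, 11.7, 8.01 and 8.90 CPM in KO and 6.74, 6.67 and 4.55 CPM in WT libraries. KO thymic Treg libraries overlapped the aTreg range, and WT thymic Treg libraries lay between it and the rTreg range. Thymic levels were 44.8, 30.0, 39.3 and 36.2 CPM in KO and 21.1, 19.998 and 22.1 CPM in WT. CD4SP counts were 0, 17, 1 and 1 in KO and 1, 3 and 0 in WT. The 17 counts were in the library that stood apart.

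Ebi3 rose in aTreg relative to rTreg cells by 2.17 in KO (SE 0.208, adjusted p = 2.12e-09) and by 2.71 in WT (SE 0.247, adjusted p = 9.26e-10). It fell in rTreg relative to thymic Treg cells by 2.04 in KO (SE 0.207, adjusted p = 1.00e-08) and by 1.82 in WT (SE 0.243, adjusted p = 1.60e-06). The ratio of thymic Treg to CD4SP was 233 in KO (149 to 387), against 19 counts, and 550 in WT (215 to 2020), against 4 counts. Without CD4SP library 2 the fitted KO difference was 10.48 on the log2 scale, compared with 7.82 with it. An opposite-strand gene overlaps Ebi3 exons in the annotation, and the strand option of the counting is not known here, so some reads may belong to it.

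Il12a (chr3:68690644-68698547, plus strand) encodes the p35 chain that interleukin-35 shares with interleukin-12. Its counts were 5, 7, 2 and 12 in KO aTreg, 7, 1 and 9 in WT aTreg, 4, 5, 7 and 3 in KO rTreg and 4, 7 and 1 in WT rTreg libraries. Thymic Treg libraries had 2, 2, 1 and 17 counts in KO and 2, 4 and 6 in WT, and CD4SP libraries had 1, 2, 1 and 0 in KO and 2, 0 and 0 in WT. Per length, Il12a stood at 0.139 CPM per kb in KO aTreg and 0.112 in WT aTreg, where Ebi3 stood at 35.6 and 33.9. The ratio of thymic Treg to CD4SP was 5.34 in KO (1.81 to 21.3, counting error only, against 4 counts) and 5.71 in WT (1.27 to 52.5, against 2 counts), with the libraries of the populations overlapping in each genotype. Without CD4SP library 2 the KO ratio was 8.16 (2.01 to 71.6), against 2 counts. KO thymic Treg library 4 held 17 of the 22 KO thymic counts. For KO against WT in each population, and for the other steps between populations, the counting interval of the ratio included 1. Il12a was not tested across libraries in the main fit, since the filter on low counts removed it. It did enter some alternative fits. In WT thymic Treg against CD4SP cells 9 to 10 genes passed with 1 library left out, where 10 includes Il12a.

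Fgl2 (chr5:21372642-21378374, plus strand) encodes a secreted fibrinogen-like protein that binds an inhibitory Fc receptor. In aTreg cells it read 190.2, 229, 201 and 185 CPM in KO and 212, 178 and 192 CPM in WT libraries. In rTreg cells it read 20.4, 26.3, 20.02 and 25.7 CPM in KO and 13.1, 16.3 and 21.97 CPM in WT libraries. The aTreg libraries were all above 170 CPM and the rTreg libraries all below 30. Thymic Treg libraries had 62.0, 45.3, 61.6 and 62.7 CPM in KO and 22.7, 31.9 and 29.4 CPM in WT, and the KO and WT libraries did not overlap. CD4SP counts were 2, 122, 19 and 15 in KO and 9, 7 and 18 in WT, so Fgl2 passed the measurable limit in KO CD4SP and not in WT CD4SP.

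Fgl2 rose in aTreg relative to rTreg cells by 3.13 in KO (SE 0.278, adjusted p = 4.91e-10) and by 3.50 in WT (SE 0.327, adjusted p = 1.54e-09). It fell in KO rTreg relative to KO thymic Treg cells by 1.33 (SE 0.267, adjusted p = 2.39e-04). In WT the same difference was -0.70 (SE 0.313, adjusted p = 0.0890), which did not pass. The WT libraries did not overlap, and how often this held over all genes was not counted. Thymic Treg exceeded CD4SP by 5.41 in KO (SE 0.367, adjusted p = 4.11e-13) and by 6.40 in WT (SE 0.519, adjusted p = 2.93e-11), and by 7.16 in KO without CD4SP library 2.

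Promoters are shown for Fgl2 and Ebi3, 2 of the 3 genes called higher in KO thymic Treg cells, as 300 bases on the plus strand of chromosomes 5 and 17 that run from 250 before to 50 after the RefSeq start (GRCm38.p6). The windows are chr5:21372423-21372722 for Fgl2 and chr17:55952373-55952672 for Ebi3. Both strands were searched for motifs. Capitals mark the AP-1 motif TGANTCA in Fgl2 and the NF-kB consensus motif in Ebi3.
Fgl2: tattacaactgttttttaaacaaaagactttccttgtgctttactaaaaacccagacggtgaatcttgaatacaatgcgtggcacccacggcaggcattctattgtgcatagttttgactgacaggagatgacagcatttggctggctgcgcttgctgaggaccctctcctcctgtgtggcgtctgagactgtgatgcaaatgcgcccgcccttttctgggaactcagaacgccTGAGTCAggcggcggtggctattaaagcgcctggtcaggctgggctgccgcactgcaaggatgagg
Ebi3: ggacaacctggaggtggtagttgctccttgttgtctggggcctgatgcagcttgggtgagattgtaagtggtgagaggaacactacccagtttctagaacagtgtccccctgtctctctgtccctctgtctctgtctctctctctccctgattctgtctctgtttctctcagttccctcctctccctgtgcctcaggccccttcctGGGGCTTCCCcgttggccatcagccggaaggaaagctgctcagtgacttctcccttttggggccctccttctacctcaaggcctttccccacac
The Fgl2 promoter held 1 AP-1 motif, shortly before the start, and 7.81% of 32851 RefSeq promoters of this length hold at least 1. Ebi3 held no AP-1 motif and 1 NF-kB motif, which 4.51% of those promoters hold, and neither held the NFAT motif TGGAAA. The NF-kB consensus was taken after a stricter form had not matched Ebi3, so the Ebi3 match is not independent of that choice. RefSeq promoters were matched for 8 of the 10 genes, without Il10 and Penk. The Areg, Ifng and both Il12a promoters held none of the 3 motifs, and the 2 Il4 promoters held 1 and 2 NFAT motifs, which 21.4% of promoters hold. A match describes letters only.

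Areg (chr5:91139599-91148432, plus strand) encodes amphiregulin, a ligand of the epidermal growth factor receptor. It was low everywhere. In aTreg cells it read 5.38, 4.50, 3.10 and 2.19 CPM in KO and 2.40, 2.76 and 1.93 CPM in WT libraries. In rTreg cells it read 1.19, 0.598, 1.27 and 0.795 CPM in KO and 0.324, 0.445 and 0.436 CPM in WT libraries. The groups kept apart in both steps, aTreg over rTreg in each genotype and KO rTreg over WT rTreg. How often groups kept apart over all genes was not counted. Thymic Treg libraries had 1.64, 1.93, 1.96 and 0.591 CPM in KO and 0.992, 1.66 and 0.704 CPM in WT, with overlap. CD4SP libraries had 1, 0, 0 and 2 counts in KO and none in WT.

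Areg rose in aTreg relative to rTreg cells by 1.97 in KO (SE 0.391, adjusted p = 2.23e-04) and by 2.54 in WT (SE 0.483, adjusted p = 1.45e-04). It fell in WT rTreg relative to WT thymic Treg cells by 1.46 (SE 0.483, adjusted p = 0.0235), a call lost without WT thymic Treg library 2 (-1.06, adjusted p = 0.137) and without WT rTreg library 1 (-1.32, adjusted p = 0.0848) or 3 (-1.52, adjusted p = 0.0534). WT thymic Treg cells had at least 37.1-fold more Areg than WT CD4SP cells. The KO ratio was 57.3 (19.3 to 280.5), against 3 counts.

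Penk (chr4:4133531-4138819, minus strand) encodes proenkephalin, the precursor of enkephalin opioid peptides. Its highest group means were in thymic Treg cells, followed by aTreg cells. In thymic Treg cells it read 487, 438, 314 and 416 CPM in KO and 309, 321 and 310.2 CPM in WT libraries. In aTreg cells it read 267, 314, 212 and 228 CPM in KO and 192, 292 and 206 CPM in WT libraries. KO aTreg library 2 lay within the WT thymic Treg range. The rTreg libraries were far lower, with 36.0, 48.2, 25.4 and 50.3 CPM in KO and 30.8, 43.2 and 29.5 CPM in WT. CD4SP levels of Penk were 9.32, 8.22, 4.09 and 5.97 CPM in KO and 3.30, 3.56 and 3.68 CPM in WT, so Penk was measurable also in cells sorted as non-Treg.

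Penk rose in aTreg relative to rTreg cells by 2.67 in KO (SE 0.197, adjusted p = 1.20e-11) and by 2.74 in WT (SE 0.228, adjusted p = 1.65e-10). It fell in rTreg relative to thymic Treg cells by 3.37 in KO (SE 0.202, adjusted p = 4.09e-13) and by 3.19 in WT (SE 0.232, adjusted p = 3.54e-11). Thymic Treg exceeded CD4SP by 5.92 in KO (SE 0.236, adjusted p = 2.09e-18) and by 6.47 in WT (SE 0.285, adjusted p = 3.63e-17). An opposite-strand gene overlaps Penk in the annotation, with the same limit on strand as for Ebi3.

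Ifng (chr10:118441046-118445892, plus strand), the signature cytokine of T helper 1 cells, ran alongside Il10 across the libraries. In aTreg cells it read 14.8, 14.2, 18.4 and 16.8 CPM in KO and 15.8, 10.6 and 14.4 CPM in WT libraries. In rTreg cells it read 2.17, 2.83, 3.13 and 3.21 CPM in KO and 1.88, 1.71 and 2.10 CPM in WT libraries. The aTreg libraries were all above 10 CPM and all others below 4. Thymic Treg libraries had 2.14, 1.54, 2.63 and 1.66 CPM in KO and 0.763, 1.60 and 0.829 CPM in WT. CD4SP counts were 5, 11, 2 and 0 in KO and 0, 5 and 1 in WT.

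Ifng rose in aTreg relative to rTreg cells by 2.50 in KO (SE 0.293, adjusted p = 8.18e-08) and by 2.84 in WT (SE 0.346, adjusted p = 1.97e-07). Between WT rTreg and WT thymic Treg cells it differed by 0.86 (SE 0.370, adjusted p = 0.0788), which did not pass. All WT rTreg libraries lay above all WT thymic ones, and such separation was not counted over all genes. The call was also missed in KO, where the libraries overlapped (adjusted p = 0.178). The ratio of thymic Treg to CD4SP was 12.8 in KO (7.92 to 21.9), against 18 counts, and 17.6 in WT (7.84 to 49.0), against 6 counts. Without CD4SP library 2, which held 11 of the 18, the KO ratio was 25.1 (11.997 to 63.1), against 7 counts.

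Il4 (chr11:53602982-53618669, minus strand), the signature cytokine of T helper 2 cells, had 183 counts in all. Counts were 22, 13, 3 and 23 in KO aTreg and 5, 4 and 2 in WT aTreg libraries. They were 1, 5, 1 and 5 in KO rTreg, 1, 0 and 6 in WT rTreg, 1, 3, 1 and 2 in KO thymic Treg and 1, 0 and 2 in WT thymic Treg libraries. CD4SP libraries held 8, 25, 6 and 8 counts in KO and 4, 15 and 16 in WT. Il4 was thus the only gene of the 10 with fewer counts in thymic Treg than in CD4SP cells. The ratio of thymic Treg to CD4SP was 0.145 in KO (0.0552 to 0.322) and 0.0816 in WT (0.0160 to 0.259), and both passed the test (adjusted p = 0.00448 in KO and 0.00564 in WT). By the rule above, Il4 was too low to measure in both of these KO groups and in WT thymic Treg cells. Without CD4SP library 2, which held 25 of the 47 KO counts, the KO ratio was 0.236 (0.0851 to 0.572) and the difference still passed (adjusted p = 0.0389). In KO, Il4 rose in aTreg relative to rTreg cells by 2.42 (SE 0.727, adjusted p = 0.00879), although KO aTreg library 3 lay within the rTreg range and Il4 was too low to measure in rTreg cells. The WT step did not pass (adjusted p = 0.536).

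Lta (chr17:35203165-35205351, minus strand) and Ltb (chr17:35194439-35196320, plus strand) encode the lymphotoxin subunits, which form a membrane heterotrimer that signals through the lymphotoxin beta receptor in lymphoid tissue. The genes lie 6844 bases apart on opposite strands. Their promoters are shown because these neighbours were expressed in every library but ran apart between populations. Each is 300 bases from 250 before to 50 after the RefSeq start (GRCm38.p6), chr17:35205302-35205601 on the minus strand for Lta and chr17:35194257-35194556 on the plus strand for Ltb. Capitals mark the NF-kB consensus motif, here found on the reverse strand.
Lta: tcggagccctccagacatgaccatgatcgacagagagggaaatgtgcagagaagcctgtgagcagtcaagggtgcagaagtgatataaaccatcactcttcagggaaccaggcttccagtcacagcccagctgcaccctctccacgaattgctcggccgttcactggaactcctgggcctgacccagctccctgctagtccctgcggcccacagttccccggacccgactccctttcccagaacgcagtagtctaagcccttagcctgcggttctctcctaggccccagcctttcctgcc
Ltb: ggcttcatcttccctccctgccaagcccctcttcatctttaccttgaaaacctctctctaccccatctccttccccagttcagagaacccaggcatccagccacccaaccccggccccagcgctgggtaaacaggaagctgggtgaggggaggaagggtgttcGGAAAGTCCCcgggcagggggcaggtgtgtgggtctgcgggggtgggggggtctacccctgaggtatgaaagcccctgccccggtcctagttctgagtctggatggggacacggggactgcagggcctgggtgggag
Ltb held 1 NF-kB motif, as did 4.51% of RefSeq promoters, and Lta held none. Neither held the AP-1 or the NFAT motif.

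Lta was highest in thymic Treg libraries, with 194, 165, 196 and 219 CPM in KO and 196, 180.4 and 179.9 CPM in WT. In rTreg cells it read 135, 147, 142 and 158 CPM in KO and 155, 169 and 145 CPM in WT libraries. In aTreg cells it read 84.9, 79.2, 93.4 and 103 CPM in KO and 90.1, 85.3 and 109 CPM in WT libraries. All aTreg libraries lay below all rTreg libraries, the opposite order to Il10, Ebi3, Fgl2, Areg, Penk and Ifng. In CD4SP cells Lta read 50.3, 36.7, 53.6 and 51.8 CPM in KO and 48.3, 43.0 and 42.4 CPM in WT.

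Lta fell in aTreg relative to rTreg cells by 0.69 in KO (SE 0.102, adjusted p = 3.25e-06) and by 0.72 in WT (SE 0.117, adjusted p = 1.43e-05). It fell in rTreg relative to thymic Treg cells by 0.41 in KO (SE 0.1004, adjusted p = 0.00160). The WT difference of -0.24 (SE 0.116) did not pass (adjusted p = 0.112). The WT libraries did not overlap, which is a description only, since it was not counted over all genes. Thymic Treg exceeded CD4SP by 2.01 in KO (SE 0.105, adjusted p = 1.10e-15) and by 2.06 in WT (SE 0.121, adjusted p = 2.59e-14).

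Ltb varied little among the Treg populations. It read 228, 211, 209 and 187 CPM in KO aTreg, 179, 192 and 215 in WT aTreg, 186, 211, 167 and 177 in KO rTreg and 157, 184 and 199.8 in WT rTreg libraries. In thymic Treg cells Ltb levels were 227, 208, 248 and 219 CPM in KO and 170.4, 211 and 211 CPM in WT libraries. Treg groups next to each other in the order of means overlapped. CD4SP libraries were lower, at 141, 108, 118 and 121 CPM in KO and 113, 129 and 123 CPM in WT. Thymic Treg exceeded CD4SP by 0.89 in KO (SE 0.0926, adjusted p = 3.48e-09) and by 0.70 in WT (SE 0.106, adjusted p = 3.75e-06). The aTreg to rTreg step did not pass (adjusted p = 0.144 in KO and 0.414 in WT). Ltb fell in KO rTreg relative to KO thymic Treg cells by 0.28 (SE 0.0917, adjusted p = 0.0148), with overlap between the libraries, and this call was lost without KO thymic Treg library 3 (adjusted p = 0.0603) or KO rTreg library 3 (adjusted p = 0.0618).

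Per length, the ratio of Lta to Ltb was 0.479 ± 0.0921 in KO aTreg, 0.531 ± 0.0382 in WT aTreg, 0.866 ± 0.104 in KO rTreg and 0.963 ± 0.148 in WT rTreg libraries. It was 0.943 ± 0.106 in KO thymic Treg, 1.04 ± 0.189 in WT thymic Treg, 0.432 ± 0.0598 in KO CD4SP and 0.404 ± 0.0556 in WT CD4SP libraries. The subunit transcripts were near parity in rTreg and thymic Treg cells, with Ltb the higher in aTreg and CD4SP cells.

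**Figure D2:**
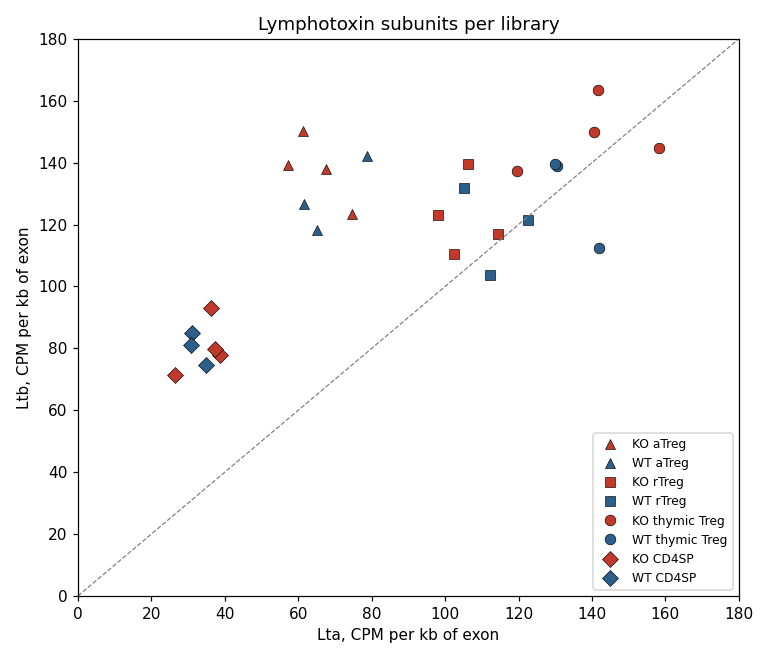
Lta (horizontal) against Ltb (vertical) in CPM per kb of exon in each of the 28 libraries, KO in red and WT in blue, with a shape per population and the line of equal levels dashed. The aTreg and CD4SP libraries sit above the line, and rTreg and thymic Treg libraries lie on both sides of it.

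In aTreg against rTreg and in thymic Treg against CD4SP cells most of the 9 genes passed the test. A large share of all genes passed in every step between populations. In aTreg against rTreg cells, 7 of 9 rose and 1 fell in KO, where 41.6% of all tested genes passed (21.7% higher and 19.9% lower). In WT 6 of 9 rose and 1 fell, where 37.9% passed (19.9% higher and 18.1% lower). The median fold change over the 9 genes was 2.42 in KO and 2.71 in WT on the log2 scale, beside 0.01 and -0.01 over all tested genes. The KO median is the value of Il4, which was too low to measure in rTreg cells. In rTreg against thymic Treg cells, 5 of 9 fell in KO (42.9% of all genes passed, 23.3% as lower) and 3 of 9 fell in WT (30.6% passed, 16.7% as lower). In thymic Treg against CD4SP cells, 8 of 9 rose and 1 fell in KO (56.5% of all genes passed, 30% as higher and 26.5% as lower). The same count was found in WT (48.3% passed, 26.8% as higher and 21.6% as lower). The gene that fell was Il4, too low to measure in both of these KO groups and in WT thymic Treg cells. The filter on low counts keeps a gene that is present in a single population, so a gene at or near 0 in CD4SP cells had to differ there.

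**Figure D3:**
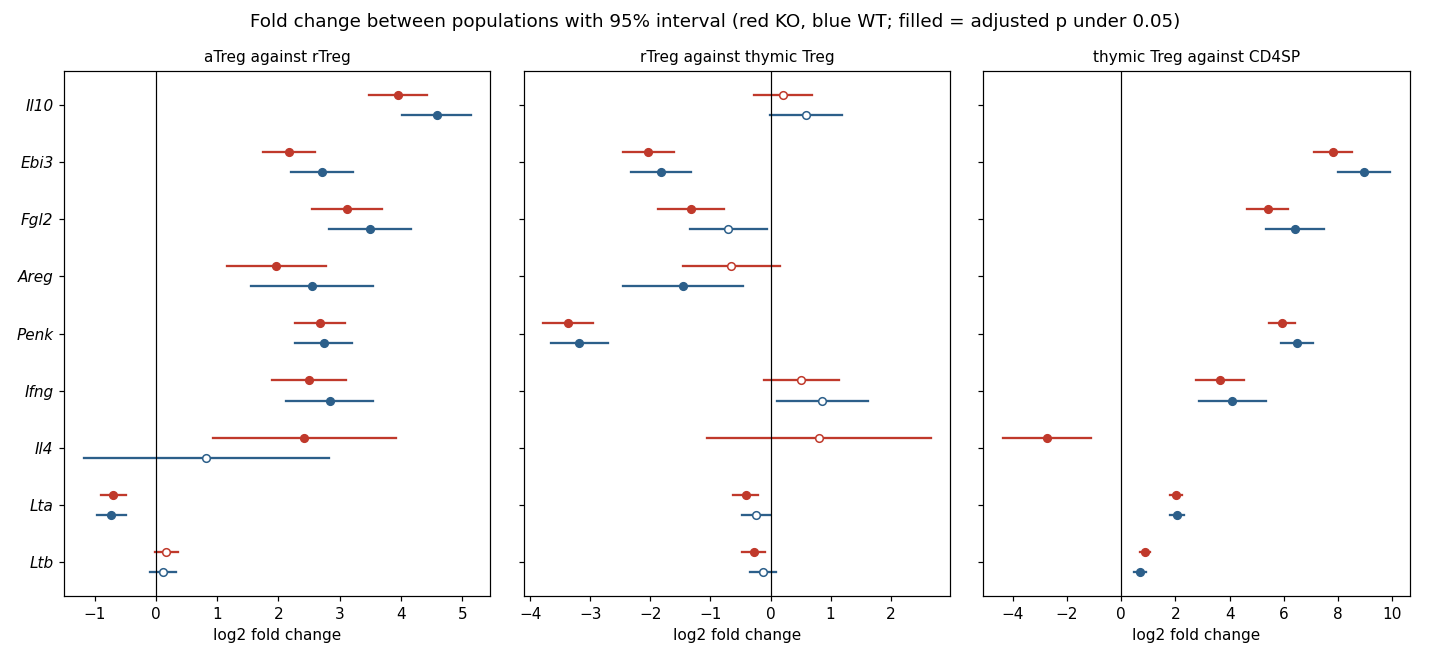
Log2 fold change (horizontal) of each gene between neighbouring populations, KO in red above WT in blue, with 95% intervals and filled points where adjusted p was under 0.05. Fold changes against groups with too few counts are left out; Il10, Ebi3, Fgl2, Areg, Penk and Ifng lie right of 0 in aTreg against rTreg, and Lta lies left of 0 there.

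Markers of other cell types moved with the same steps, some sums up and others down in aTreg against rTreg cells. Of 13 tested myeloid markers, 10 were higher in aTreg than rTreg cells in KO and in WT, with summed levels of 225 to 259.9 CPM in KO aTreg, 315 to 389.6 in WT aTreg, 108 to 135 in KO rTreg and 123 to 129.9 in WT rTreg libraries. Summed B cell markers were 107 to 126 CPM in KO aTreg, 97.2 to 118 in WT aTreg, 72.3 to 84.8 in KO rTreg and 69.9 to 81.0 in WT rTreg libraries. Innate-like and gamma-delta T cell markers summed to 21.1 to 34.6 CPM in KO aTreg and 32.2 to 33.2 in WT aTreg. In rTreg they summed to 4.86 to 7.44 CPM in KO and 5.02 to 8.38 in WT, and 1 of 3 tested rose in each genotype. Dendritic cell markers summed to 869 to 1023 CPM in KO aTreg, 798 to 1447 in WT aTreg, 389 to 528 in KO rTreg and 334 to 459 in WT rTreg libraries, and 4 of 9 tested rose and 1 fell in KO while 6 rose in WT. NK cell markers summed to 83.1 to 115 CPM in KO aTreg, 82.7 to 86.7 in WT aTreg, 53.0 to 68.8 in KO rTreg and 40.6 to 49.7 in WT rTreg libraries, with Ncr1, a defining NK receptor, at most 0.400 CPM in any of them. Stromal and CD8 T cell sums went the other way. Stromal markers summed to 168 to 185 CPM in KO aTreg and 159 to 186 in WT aTreg. In rTreg they summed to 292 to 341 CPM in KO and 295 to 363 in WT. CD8 T cell markers summed to 26.4 to 31.2 CPM in KO aTreg and 27.4 to 33.4 in WT aTreg. In rTreg they summed to 38.3 to 43.0 CPM in KO and 45.7 to 49.1 in WT. Of 4 tested in each list, 2 stromal and 1 CD8 marker rose and 1 of each fell, in both genotypes. The part of these other cells in the values of the cytokine genes was not tested, apart from the myeloid sum as a covariate. Of the same myeloid markers, 11 in KO and 10 in WT were higher in thymic Treg than CD4SP cells. In rTreg against thymic Treg cells 11 in KO and 10 in WT were lower. With the myeloid sum as a covariate, aTreg against rTreg lost Areg (1.65, adjusted p = 0.0512) and Il4 (1.27, adjusted p = 0.303) in KO, and Areg (2.12, adjusted p = 0.0670) and Lta (-0.34, adjusted p = 0.0756) in WT, while Ltb gained a call in KO (0.31, adjusted p = 0.0471). In that fit rTreg against thymic Treg lost Ebi3 (-1.33, adjusted p = 0.141), Fgl2 (-0.26, adjusted p = 0.860) and Ltb (-0.59, adjusted p = 0.0531) in KO, and Areg (-1.06, adjusted p = 0.406) in WT, where Lta gained one (-0.61, adjusted p = 0.00149). Every call in thymic Treg against CD4SP held in that fit, where Il10, Ebi3, Areg and Ifng, at or near 0 in CD4SP cells, had to differ. Within each genotype the myeloid sum did not overlap between the populations of any of these steps. The fit therefore cannot separate that sum from population.

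The deletion of CNS3 was compared within each population. In thymic Treg cells 3 of the 9 tested genes rose in KO, Il10, Ebi3 and Fgl2, and none fell, where 9.34% of all tested genes passed (4.21% as higher). Il10 averaged 5.28 ± 1.36 CPM in KO (SD, n = 4) and 2.78 ± 0.292 CPM in WT (n = 3), which is 0.91 on the log2 scale (SE 0.270, adjusted p = 0.0325). Ebi3 averaged 37.6 ± 6.16 CPM in KO and 21.1 ± 1.07 CPM in WT, which is 0.83 on the log2 scale (SE 0.214, adjusted p = 0.0140). Fgl2 averaged 57.9 ± 8.44 CPM in KO and 28.02 ± 4.77 CPM in WT, which is 1.05 on the log2 scale (SE 0.288, adjusted p = 0.0207). For all 3, each KO library was above each WT library, and how often this held over all genes was not counted. Ifng averaged 1.99 ± 0.4998 CPM in KO and 1.06 ± 0.464 CPM in WT (0.92, SE 0.351, adjusted p = 0.0921), with overlap. Penk averaged 414 ± 72.8 CPM in KO and 314 ± 6.54 CPM in WT, or 0.40 on the log2 scale (SE 0.197, adjusted p = 0.193), also with overlap. Areg, Lta and Ltb did not pass (adjusted p = 0.521, 0.755 and 0.217), and Il4 was too low to measure in both groups. The median over the 9 genes was 0.83, beside 0.02 over all tested genes. Il4 was counted among the 9, at 0.998 from 7 counts in KO and 3 in WT.

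These 3 calls rest on small margins. None of the 3 passed when WT thymic Treg library 1 or 2 was left out, Ebi3 alone passed without WT library 3, and Il10 lost its call without KO library 2 or 3. DESeq2, which called 14.2% of all genes, called Il10, Ebi3 and Ifng, and not Fgl2 (adjusted p = 0.232).

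**Figure D4:**
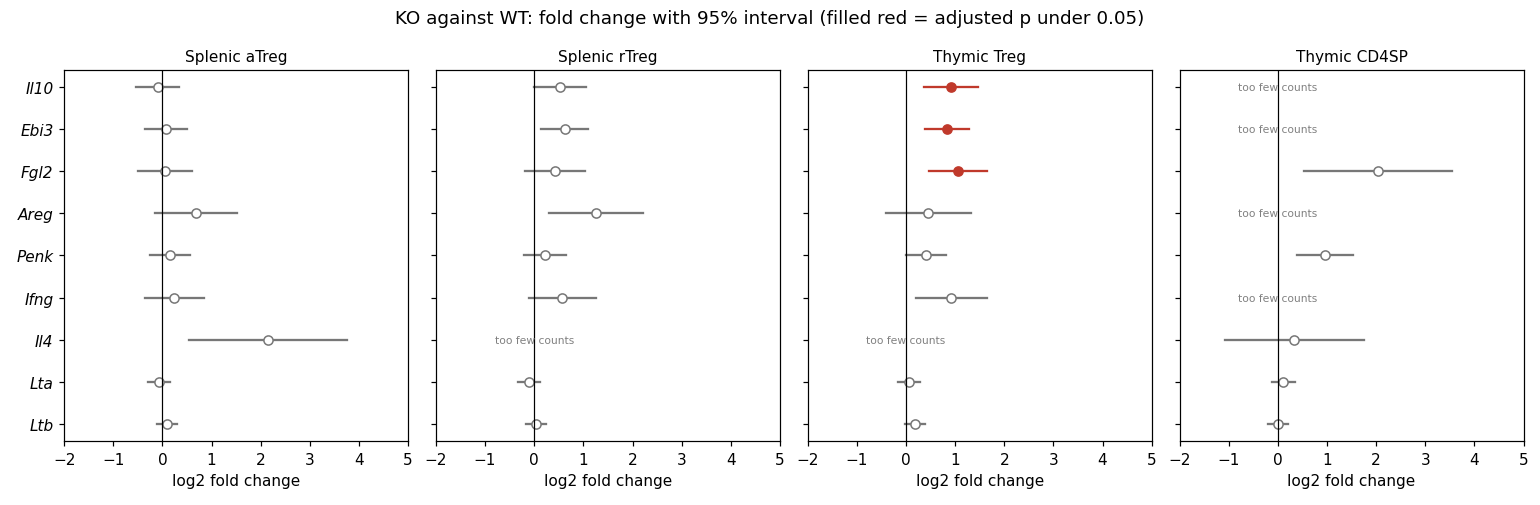
Log2 fold change (horizontal) of KO against WT for each gene in the 4 populations, with 95% intervals and filled red points where adjusted p was under 0.05. Filled points appear in thymic Treg cells for Il10, Ebi3 and Fgl2, and genes too low to measure in both groups are marked.

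Sums of markers of other cell types also differed between KO and WT thymic Treg libraries, some higher and others lower in KO. The share of reads outside genes differed too. Summed over 13 myeloid markers, levels were 751, 990.0, 469 and 423 CPM in KO and 396, 294 and 285 CPM in WT, and 4 of the 13 rose (Itgam, Cst3, Fcgr3 and Cd68). Lyz2, a defining myeloid gene, stood at 348 CPM in KO and 135 CPM in WT. Dendritic cell markers summed to 933, 566, 965 and 845 CPM in KO and 549, 638 and 495 CPM in WT, and none of 9 passed. B cell markers summed to 52.1, 51.2, 53.7 and 56.2 CPM in KO and 36.1, 35.9 and 37.8 CPM in WT, none of 8 rose and Cr2 fell. Pax5, the B lineage factor, had 7 counts in KO and 0 in WT. NK cell markers summed to 182, 224, 188 and 175 CPM in KO and 153, 149.6 and 151 CPM in WT. None of 6 tested NK markers passed, and their median log2 fold change was -0.15. Mast cell and basophil markers went the other way, with sums of 54.1 to 79.8 CPM in KO and 86.1 to 96.5 in WT, and none of 3 tested passed. Stromal sums were also lower in KO, at 248.6 to 291.0 CPM against 292.9 to 334.7 in WT, although 1 of 4 tested stromal markers rose and none fell. Reads in no gene were 42.3 to 45.0% in KO and 46.3 to 49.3% in WT thymic Treg libraries.

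The library with the most myeloid counts, KO library 2, had the lowest Fgl2 and Ebi3 and the highest Il10 of the KO thymic Treg libraries. It also had the lowest dendritic sum of the 4, 566 CPM, against 845 to 965 in the other KO libraries. The part of dendritic cells in these values was not tested. Without KO libraries 1 and 2 the fold changes were 0.79 for Il10 (adjusted p = 0.167), 0.84 for Ebi3 (0.0584) and 1.15 for Fgl2 (0.0508), and 0 of the 9 genes passed. With the myeloid sum as a covariate they were 0.67, 0.56 and 0.63, and with the no-gene read share as one they were 0.14, 0.64 and 0.96, in each case with 0 of the 9 past the test. Neither covariate overlapped between the KO and WT thymic Treg libraries, so loss of calls in these fits cannot separate genotype from the covariate. Over all 15 alternatives Il10 lay between 0.14 and 1.05, Ebi3 between 0.56 and 0.93, and Fgl2 between 0.63 and 1.15, above 0 in each.

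**Figure D5:**
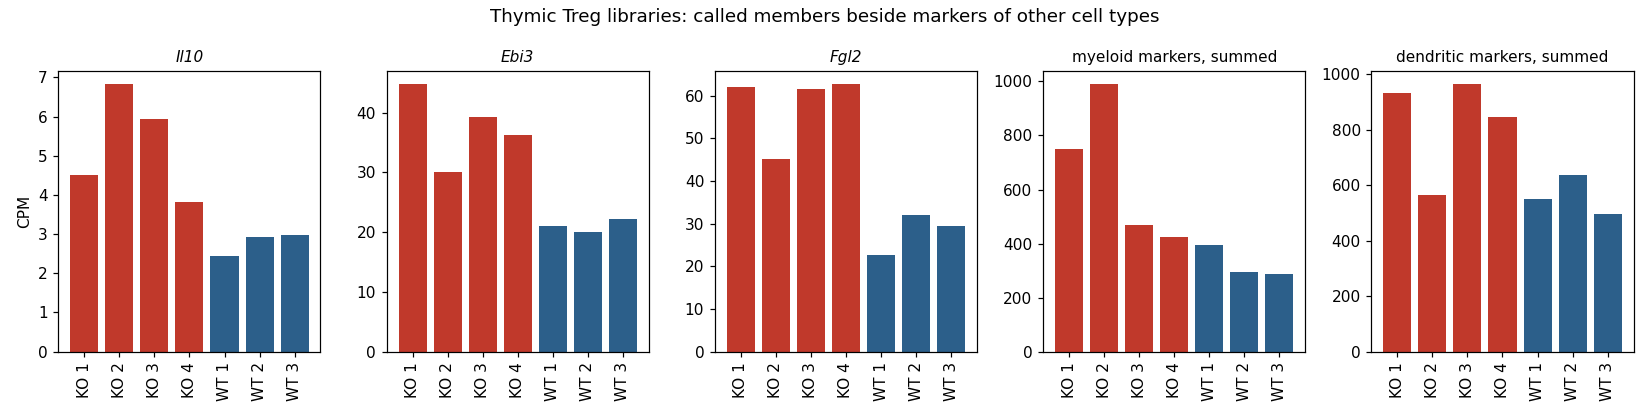
Levels in CPM of Il10, Ebi3 and Fgl2, and of summed myeloid and dendritic cell markers, in each KO (red) and WT (blue) thymic Treg library. KO library 2 has the highest myeloid sum (990.0 CPM) and the lowest KO level of the dendritic sum (566 CPM), Fgl2 (45.3 CPM) and Ebi3 (30.0 CPM).

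In the other populations no gene of the 9 passed between KO and WT by edgeR. In CD4SP cells, where 0.195% of all genes passed, 2 of the 9 had an unadjusted p under 0.05, beside 6.21% of all genes. DESeq2 called 1 of the 9, Penk, beside 0.519% of all genes. Penk averaged 6.90 ± 2.34 CPM in KO and 3.51 ± 0.191 CPM in WT CD4SP cells (log2 fold change 0.95, SE 0.279, edgeR adjusted p = 0.328). Every KO library was above every WT library, and how often this held over all genes was not counted. DESeq2 gave 0.98 with adjusted p = 0.0322. Fgl2 differed by 2.04 in CD4SP cells (SE 0.731, adjusted p = 0.536) and by 0.29 without KO CD4SP library 2, which held 122 of the KO counts.

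In rTreg cells, where 0.135% of all genes passed, 2 of the 9 had an unadjusted p under 0.05, beside 6.16% of all genes. DESeq2 called 0 of the 9, beside 0.352% of all genes. Ebi3 averaged 9.19 ± 1.73 CPM in KO and 5.99 ± 1.25 CPM in WT (0.62, SE 0.234, adjusted p = 0.597). Areg averaged 0.965 ± 0.322 CPM in KO and 0.401 ± 0.0673 CPM in WT (1.26, SE 0.465, adjusted p = 0.588). For both, and for Ifng (0.57, SE 0.329, adjusted p = 0.858), all KO libraries lay above all WT libraries without a call. How often this held over all genes was not counted, so it is a description only.

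In aTreg cells, where 0.03% of all genes passed, DESeq2 called 0 of the 9, beside 0.136% of all genes. An unadjusted p under 0.05 was found for 1 of the 9, beside 6.73% of all genes. That gene was Il4, with 61 counts in KO and 11 in WT. Its ratio of pooled CPM was 4.52 (2.36 to 9.52, counting error only). The spread between libraries was wide, and the fitted log2 fold change of 2.15 (SE 0.784) did not pass (adjusted p = 0.556). Il10 in aTreg cells was 93.3 ± 8.77 CPM in KO and 99.9 ± 9.06 CPM in WT, with a 95% interval for the log2 fold change of -0.53 to 0.33. For Fgl2 the interval was -0.50 to 0.61, and for Ebi3 it was -0.36 to 0.50.

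The difference between the KO effects was tested in 3 pairs of populations, thymic Treg minus CD4SP, rTreg minus thymic Treg and aTreg minus rTreg. By edgeR 0 of the 9 genes passed in any of them, beside 0.615%, 0.03% and 0% of all genes. An unadjusted p under 0.05 was found for 0 of the 9, beside 13.8%, 9.88% and 4.63% of all genes. DESeq2 called 0 of the 9, beside 3.43%, 1.08% and 0.00508% of all genes. The KO effect on these genes was therefore not shown to differ between populations.

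The counts for 3 related gene lists are set beside the same shares of all genes. These were 9.34% called in KO against WT thymic Treg cells, 37.9% in WT aTreg against rTreg cells and 48.3% in WT thymic Treg against CD4SP cells. In each of these steps the myeloid sum moved too, and in KO against WT thymic Treg cells the 1246 calls over all genes became 456 with that sum as a covariate and 45 with the no-gene read share. Since neither covariate overlapped between KO and WT there, these fits cannot separate it from genotype. Of 17 tested receptors for these products, 3 rose in KO against WT thymic Treg cells and none fell. Il10ra, the ligand-binding interleukin-10 receptor chain, averaged 49.2 ± 10.6 CPM in KO and 27.7 ± 1.76 CPM in WT (0.83, SE 0.128, adjusted p = 1.82e-04). Ifngr1, of the interferon gamma receptor, rose by 0.52 (adjusted p = 0.00228) and Il10rb, the shared second chain, by 0.28 (adjusted p = 0.00936). In WT aTreg against rTreg cells 6 of the 17 rose and 2 fell, among them Tnfrsf1b, a receptor for tumour necrosis factor and Lta, at 714 ± 56.9 CPM in aTreg and 190.0 ± 24.0 CPM in rTreg (1.91, adjusted p = 2.38e-13). Ifngr2, the signalling chain of the interferon gamma receptor, fell by 1.08 (adjusted p = 2.57e-11). In WT thymic Treg against CD4SP cells 8 rose and 4 fell.

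Among 23 tested genes for other cytokines and growth factors, 4 rose in KO against WT thymic Treg cells and none fell. Ccl5, a chemokine, averaged 269 ± 8.55 CPM in KO and 138 ± 10.6 CPM in WT (0.96, adjusted p = 0.0158), and Csf1, the macrophage growth factor, averaged 13.7 ± 2.38 CPM in KO and 8.10 ± 0.932 CPM in WT (0.76, adjusted p = 0.00640). In WT aTreg against rTreg cells 11 rose and 2 fell, and in WT thymic Treg against CD4SP cells 11 rose and 3 fell. Ccl5 had 184 ± 8.25 CPM in WT aTreg and 22.4 ± 3.22 CPM in WT rTreg cells.

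Of 23 tested transcription factors known to act on these cytokine genes, 4 rose in KO against WT thymic Treg cells and 2 fell. Maf, an activator of Il10, averaged 70.3 ± 8.75 CPM in KO and 41.8 ± 5.28 CPM in WT (0.75, adjusted p = 0.00104). Batf averaged 106 ± 7.81 CPM in KO and 78.9 ± 9.17 CPM in WT (0.43, adjusted p = 0.00654). Bach2, a repressor of effector genes, fell by 0.39 (adjusted p = 0.00352). The same 3 genes passed in WT aTreg against rTreg cells, Maf at 2.81, Batf at 1.61 and Bach2 at -1.50, where 15 of the 23 rose and 5 fell. In WT thymic Treg against CD4SP cells 19 rose and none fell, led by Bhlhe40 at 6.21 (adjusted p = 6.11e-19).

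Genes whose levels ran most like each member over the 28 libraries were sought by Pearson's r of log2(CPM + 0.5), among 9586 genes with at least 5 CPM in a group. The libraries share populations, so r is large wherever 2 genes rank the populations alike. Il10 was most like Sccpdh (0.989), Cobll1 (0.987) and Noxa1 (0.986), and Ifng had Sccpdh (0.987), Matk (0.987) and Noxa1 (0.985). Il10 and Ifng had r = 0.984 with each other. Ebi3 was most like Anxa4 (0.994), Ccl5 (0.992) and Stx11 (0.990), and Fgl2 was most like Chst2 (0.993), Atp2b4 (0.991) and Tigit (0.991). Penk was most like Il1r2 (0.989), Dusp14 (0.986) and Rgs9 (0.985). Areg, with lower counts, reached 0.943 with Ttc39c. Lta was most like Ecm1 (0.978), Ltb most like Mif4gd (0.938), and Lta with Ltb gave 0.788. Il4 reached only 0.753, with Fbxl5, at counts too low to measure in most groups.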

How the data were processed

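Sorted cells were lysed in TRIzol, cDNA was amplified by the SMART method and read pairs came from a HiSeq machine, per the labels' protocols. The tools were Trimmomatic, STAR and HTSeq on mm10, per the submitters' processing notes. Not given in the sources used here: tool versions, gene models and any strand option. Values are unnormalised counts per gene symbol, as the authors deposited them. Library sizes leave out the lines without a gene: reads in no gene were 42.3 to 49.7%, ambiguous reads 0.608 to 0.763% and reads mapping to several places 22.8 to 30.4%.

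Genes were tested on these counts with edgeR 4.0.16 in R 4.3.3 (quasi-likelihood F test, TMM factors 0.970 to 1.04, filterByExpr). One fit held all 28 libraries and a mean for each of 8 groups (20 residual df), and 13338 genes were tested in each of 10 comparisons and 3 differences of KO effects. P-values were adjusted by Benjamini-Hochberg, with a threshold of 0.05. Standard errors were derived from the F statistic. Levels are CPM, as mean ± SD. Whether the libraries of a pair of groups overlapped was checked for the listed genes and not over all genes. Intervals on ratios of summed counts are 95% exact intervals for 2 Poisson counts. These intervals and the floor of 3 counts cover counting error only. Replicates differed beyond sampling noise (chi-square per degree of freedom 7.31 to 39.6). Gene positions came from GENCODE M21 (GRCm38) and promoters from RefSeq. The NF-kB consensus replaced a stricter form, searched first, that matched Ltb and not Ebi3.

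The alternatives were other size factors, DESeq2 1.42.0, no filter, fewer groups, each library left out, a replicate block and 2 covariates. All 10 genes are named wherever measurable, with up to 3 genes of each list by smallest p and the 3 genes most alike. The genes, lists and rules were chosen with earlier results of these data known. The main fit took no libraries as pairs, and the replicate block was an alternative only. Deviations of every same-numbered pair correlated over 0.1 for KO aTreg and rTreg (0.121 to 0.232) and WT thymic Treg and CD4SP (0.107 to 0.133). The same held for WT CD4SP and rTreg (0.102 to 0.145), which were not compared. The labels do not say that a number marks shared mice. The fits were tested on simulated data.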

Additional observations from a re-analysis of the deposited data

Results flagged for a closer look

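With 4 KO libraries per group, each gene was checked for a library far from the other 3. This happened in 5 of 40 gene and group pairs. The limit used gives about 1 in 20 by chance for independent, normally spread values. Counts near 0 and genes that share a library do not meet that, so 5 of 40 cannot be read as an excess. KO CD4SP library 2 was far above the others for 3 genes. Ebi3 stood at 0.613 CPM there (17 counts), against 0 to 0.0350 CPM in the other KO CD4SP libraries. Fgl2 stood at 4.40 CPM (122 counts), against 0.0818 to 0.665 CPM. Il4 stood at 0.902 CPM (25 counts), against 0.210 to 0.327 CPM. The same library had the highest summed myeloid (282 CPM), dendritic (335 CPM), B cell (36.6 CPM) and NK cell markers (128 CPM) of its group and the most genes detected of all libraries, 15649, and the part of those cells in these values was not tested.

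In thymic Treg cells, Fgl2 in KO library 2 was 45.3 CPM, below the 61.6 to 62.7 CPM of the other KO libraries and above all WT libraries. That library also had the highest myeloid sum of the KO group, 990.0 CPM, and its lowest dendritic sum, 566 CPM against 845 to 965 CPM. Il12a in KO thymic Treg library 4 was 0.479 CPM (17 counts), against 0.0399 to 0.0715 CPM in the other KO libraries, and this is the largest Il12a count of the 28 libraries.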

How the results depend on the processing

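Over 1849 pairs of a gene's fold change and an alternative, 52 changed sign, and none of these had passed the test in either fit. Of 44 called fold changes, 32 passed in every alternative tried and 12 lost the call in at least 1, while 8 uncalled ones passed in some. For KO against WT thymic Treg, 3 genes were called, but 0 once the no-gene read share or, in another fit, the summed myeloid markers entered as a covariate (0 and 0), and 0 after leaving out KO libraries 1 and 2, an alternative chosen after seeing the data. It ranged from 0 to 3 when 1 library was left out. Across all 13338 genes 1246 were called, against 45, 456 and 450 in those 3 fits, 497 without WT library 1, 546 without WT library 2 and 1721 by DESeq2, and the cause was not tested. Neither covariate overlapped between KO and WT thymic Treg libraries, so the covariate fits cannot separate it from genotype. For KO against WT CD4SP the count of 0 became 1 by DESeq2 (Penk). For rTreg against thymic Treg the KO count of 5 became 2 with the no-gene read share (Ebi3 and Penk) and 2 with the summed myeloid markers (Lta and Penk), and the WT count of 3 became 5 when only the compared groups were fitted (Fgl2 and Lta added). The WT count was 2 to 3 with 1 library left out, the lower value without rTreg library 3 (Ebi3 and Penk). Over all genes, with the summed myeloid markers, WT aTreg against rTreg gave 2660 in place of 5060 and KO 3507 in place of 5555, rTreg against thymic Treg gave 974 in place of 5724 in KO and 2030 in place of 4081 in WT, and KO thymic Treg against CD4SP gave 4008 in place of 7533. With the no-gene read share, KO rTreg against thymic Treg gave 1340. Deviations from group means of same-numbered libraries correlated at -0.0965 to 0.157 over 12 pairs across genotypes and at -0.00402 to 0.232 over 42 pairs across populations. Every pair was over 0.1 in 2 of the 10 comparisons, KO aTreg against rTreg and WT thymic Treg against CD4SP, where the block left the counts at 8 and 9. The main fit took no libraries as pairs in any comparison. With the replicate block the thymic Treg count stayed at 3, and WT rTreg against thymic Treg gained Lta (-0.24, adjusted p = 0.0465), a count of 4. Il12a, and Il4 in most groups, were limited by depth: 3 counts equal 0.0754 to 0.133 CPM per library.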
